A study of Mus musculus with 11 samples.

Results

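The genes described are 10 rows of the count table that belong to the Hippo pathway or are widely used as readouts of it. They are the coactivator genes Yap1 and Wwtr1, the DNA-binding partners Tead1 and Tead4, the kinases Lats1 and Lats2, the pathway regulators Amotl2 and Vgll4, and the target genes Cyr61 and Ctgf, which newer annotations call Ccn1 and Ccn2. The members are defined by name, with no measured value in the rule, among the 50600 genes listed, and all 10 were among the 15808 genes that passed edgeR's filter on low counts and were tested. RNA came from C57BL/6 mice (C57Bl/6J in the study's methods) in which the pulmonary artery was tied against a needle on the day of birth (pulmonary artery banding, PAB), which narrows the outlet of the right ventricle, or which had the same surgery without the band (sham). Hearts were taken 3 or 7 days later, giving 3 libraries of P3 sham, 3 of P3 PAB, 3 of P7 sham and 2 of P7 PAB. All mice were wild type, with no transgene. The labels call the tissue heart and the study's methods call it ventricles, so RNA of the loaded right ventricle and of the left ventricle was not separated. The sources used here do not say whether a library came from 1 animal or from a pool, so p-values measure the spread between these libraries.

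The Hippo pathway is a kinase cascade in which LATS1 and LATS2 phosphorylate the coactivators YAP (from Yap1) and TAZ (from Wwtr1) and keep them out of the nucleus. Unphosphorylated YAP and TAZ enter the nucleus, bind TEAD proteins and switch on genes such as Cyr61, Ctgf and Amotl2; AMOTL2 and VGLL4 act against them, the first by holding YAP in the cytoplasm and the second by occupying TEAD. In the heart the pathway is known for restraining cardiomyocyte proliferation, and YAP and TAZ also respond to mechanical load. Much of this regulation acts on protein phosphorylation and location, which transcript counts do not measure.

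The short motif bound by TEAD proteins, CATTCC, which reads as GGAATG from the opposite strand, was looked for in RefSeq promoter windows on GRCm38.p6, each reaching from 250 bases before to 50 bases after a transcription start. A window was given for 7 of the 10 genes, and 6 of these held the motif once in at least 1 window. Of all 27025 gene symbols with a window, 16.6% held it on either strand in at least 1 window (14.7% of the 32851 windows). Counting only the 250 bases before the start, 5 of the genes held it, against 14.4% of all symbols (12.6% of windows). The stretches around the motif are shown because they include the called gene Cyr61 and both coactivator genes; each is 30 bases, read 5′ to 3′ on the strand of the gene, with the motif in capitals.
Cyr61, chr3:145650071-145650100, minus strand: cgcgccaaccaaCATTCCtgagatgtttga
Amotl2, chr9:102717727-102717756, plus strand: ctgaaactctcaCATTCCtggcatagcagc
Yap1, chr9:8004720-8004749, minus strand: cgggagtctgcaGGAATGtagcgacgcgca
Wwtr1, chr3:57576029-57576058, minus strand: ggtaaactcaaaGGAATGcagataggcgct
Vgll4, chr6:114969268-114969297, minus strand: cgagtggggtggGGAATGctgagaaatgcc
Lats2, chr14:57746102-57746131, minus strand: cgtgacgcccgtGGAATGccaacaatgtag
The motif began 103 bases before the start in Cyr61, 65 in Amotl2, 141 in Yap1 and 82 in Vgll4. Wwtr1 has 2 annotated starts, which lie 136 and 170 bases after the same motif. In Lats2 it began 4 bases after 1 of 2 starts. Lats1 had a window without the motif. The stretch of Amotl2 lies within an exon of another Amotl2 transcript in GENCODE M21. The same search found the motif in 9 of the 25 other Hippo pathway genes that had a window and in 4 of 12 other YAP and TAZ target genes. A match of 6 letters is a description of the sequence and not a binding site.

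For Cyr61, the gene whose difference between PAB and sham hearts was called at P7 and which had a window, the 250 bases before the start are shown, with the motif in capitals (GRCm38.p6, chr3:145649986-145650235, minus strand).
Cyr61: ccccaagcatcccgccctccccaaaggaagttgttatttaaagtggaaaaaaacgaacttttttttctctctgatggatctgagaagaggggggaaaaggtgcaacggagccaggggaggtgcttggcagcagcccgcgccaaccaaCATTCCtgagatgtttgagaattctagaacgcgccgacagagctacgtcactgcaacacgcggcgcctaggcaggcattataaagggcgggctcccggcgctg

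**Figure D1:**
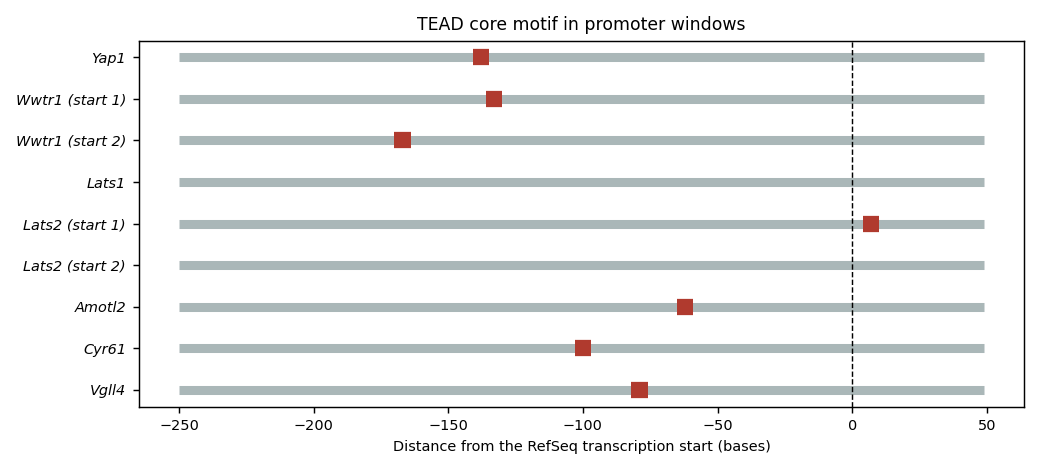
Position of the TEAD core motif (red) in each RefSeq promoter window (grey bars, 9 windows of 7 genes); the x axis is the distance from the transcription start in bases, and the dashed line is the start. The motif lay before the start in Yap1, Wwtr1, Amotl2, Cyr61 and Vgll4, and 4 bases after it in Lats2.

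Levels are given as CPM, counts divided by the library size after edgeR's TMM scaling. Total counts ranged from 19274045 to 26820228 per library. Compared per kilobase of exon over the 11 libraries, Ctgf was the most abundant of the 10 genes (56.9 CPM per kb on average), followed by Wwtr1 (23.8), Cyr61 (21.1), Tead1 (16.5), Amotl2 (14.8), Yap1 (9.22), Lats2 (8.67), Vgll4 (4.76), Lats1 (4.27) and Tead4 (1.5). The order changed between groups: Wwtr1 (27.9) was above Ctgf (25.3) and Tead1 (17.1) above Cyr61 (15.3) in P7 sham, and Cyr61 was above Wwtr1 in P3 PAB (25 and 22.9) and P7 PAB (27.1 and 20.6) libraries. Lower in the order, Amotl2 was above Tead1 in P7 PAB (13.8 and 12.3), Lats2 above Yap1 in P3 sham (9.72 and 9.60) and P3 PAB (9.38 and 9.30), and Lats1 above Vgll4 in P7 sham libraries (4.62 and 4.18). The SD over the 11 libraries was largest for Ctgf, 24.8 CPM per kb, and was 0.459 for Yap1. Wwtr1, Cyr61 and Tead1 each differed from the next by less than the SD of Cyr61 (5.20), Tead1 and Amotl2 by less than the SD of either (2.29 and 2.46), Yap1 and Lats2 by less than the SD of Lats2 (1.38), and Vgll4 and Lats1 by less than the SD of either (0.585 and 0.505). Of the TEAD members, Tead1 was the more abundant.

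**Figure D2:**
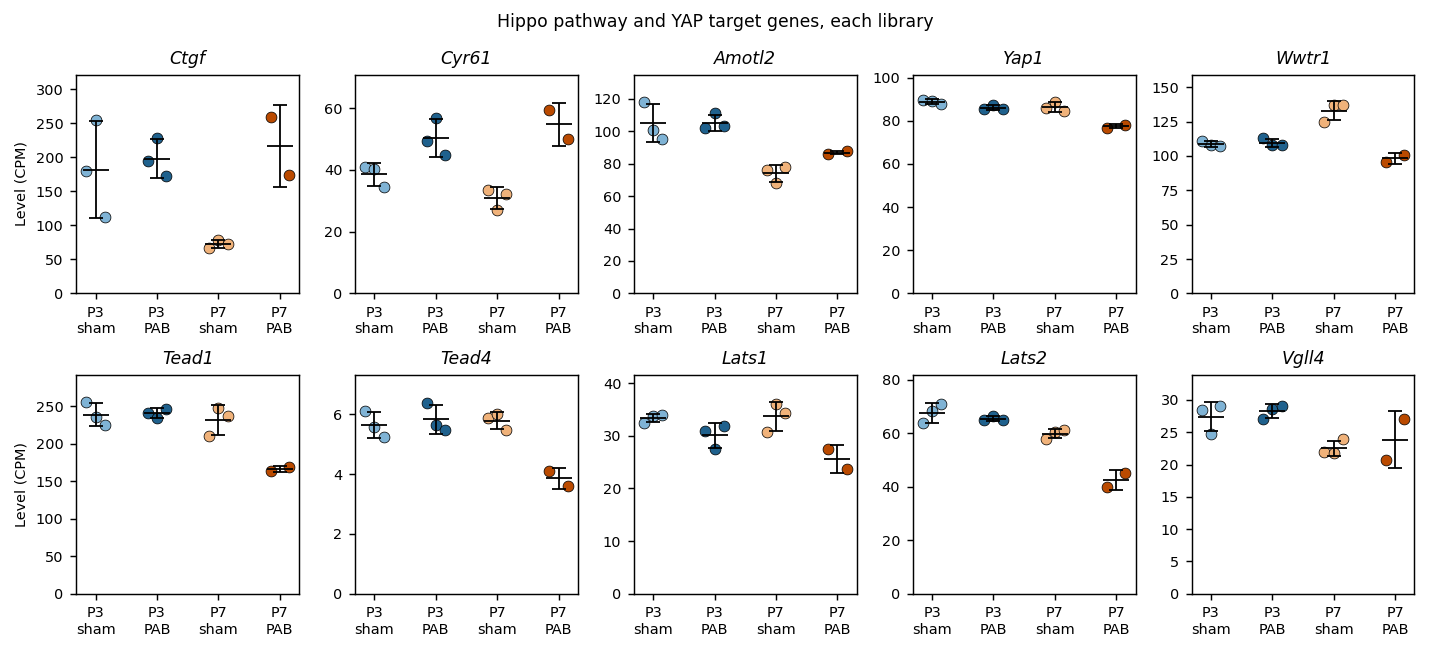
CPM of the 10 genes in every library (points), by group, with the mean and SD of each group (black bars); the y axis starts at 0. In the Ctgf panel the P7 sham libraries lie between 67.1 and 78.0 CPM, below the libraries of all other groups. In the Yap1, Wwtr1, Tead1, Tead4 and Lats2 panels the P7 PAB libraries lie below all others.

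A difference was called when it reached 1.5-fold in edgeR's quasi-likelihood fit and its p, adjusted by Benjamini-Hochberg over the 15808 genes, did not exceed 0.05. The adjusted p alone means the second condition, whatever the fold. Statements that groups did or did not overlap describe the libraries only, since the share of all genes that do so was not computed. Differences are log2 values, PAB minus sham or P7 minus P3. Before the results, 2 features that separate libraries must be stated. Transcripts that depend on sex differed: Xist was at 630 to 1061 CPM in all P7 sham libraries and in P3 sham replicate 1, and at most 0.873 CPM in the other 7, while the Y-linked Ddx3y was at 42.9 to 51.0 CPM in those 7 and did not exceed 0.437 CPM in the 4 high-Xist libraries. Sex-linked class and operation coincide at P7 and cannot be told apart within that age, so a fit with the class as a covariate rests on the single high-Xist library at P3. Sham libraries of P7 and P3 also differ in class, as only replicate 1 of P3 sham was high in Xist. Relative to the other libraries, those of P7 PAB also lost signal with gene length. For each library, every gene's log2 level was taken as its deviation from the gene's mean over all libraries. The slope of this deviation against log2 exonic length was -0.151 and -0.141 in the P7 PAB libraries and between -0.0283 and 0.0676 in the other 9.

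At P7, 1 week after banding, the target genes Ctgf and Cyr61 were higher in PAB than in sham hearts, while most genes of the machinery upstream of them were lower by less than 1.5-fold. Banded hearts had 2.99-fold more Ctgf and 1.77-fold more Cyr61. Both were called, which makes 2 of 10 members called higher, against 9.63% of all genes tested; no member was called lower, against 8.59%. At the adjusted p alone, 3 members were higher and 6 lower, against 22.8% and 22.1% of all genes. With sex-linked class in the model, Tead1 and Tead4 did not pass. All genes went from 3600 higher and 3491 lower to 1680 and 1391 in that fit. The median difference of the 10 genes was -0.28, against -0.0037 for all genes tested. With each library's trend with gene length removed it was -0.02, with 3 members higher and 4 lower at the adjusted p alone, against 19.8% and 17.8% of all genes in that fit. By DESeq2's Wald test 3 members were called, Tead4 being the third, against 16.9% of all genes in either direction.

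Ctgf (ENSMUSG00000019997) encodes connective tissue growth factor, a secreted matricellular protein, and lies on chromosome 10 from 24595442 to 24598683 on the plus strand of GRCm38. Its level was 67.1, 78.0 and 72.3 CPM in P7 sham libraries and 259 and 174 CPM in P7 PAB libraries. The groups did not overlap, and replicate 1 of P7 PAB was well above replicate 2. The difference was 1.58 (standard error 0.24, 95% interval 1.07 to 2.09, edgeR adjusted p = 9.2e-05). It was 1.27 without P7 PAB replicate 1 and 1.84 without replicate 2; in such fits 1 P7 PAB library is left, the spread comes from the other groups, and that library is assumed to vary like them. The call held under every other alternative run, between 1.30 and 1.64, with an adjusted p of at most 0.035. An antisense transcript, Gm15270, shares 665 exonic bases with Ctgf, and since the strand setting of the counting is not given in the sources used here, reads of the pair cannot be told apart.

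Cyr61 (ENSMUSG00000028195; chromosome 3, 145646976 to 145649981, minus strand) encodes a related secreted protein that binds integrins and is an immediate early gene as well as a YAP target. Its level was 33.6, 27 and 32.1 CPM in P7 sham and 59.6 and 49.9 CPM in P7 PAB libraries, again without overlap. The difference was 0.83 (standard error 0.12, 95% interval 0.57 to 1.08, edgeR adjusted p = 6.5e-05). After each library's length trend was removed it was 0.57, just under 1.5-fold, so the call ended although the edgeR adjusted p stayed at 8.1e-04. With sex-linked class in the model it was 0.96 (edgeR adjusted p = 0.0062). In the same comparison the immediate early genes Fos and Atf3 were also higher, by 0.84 (edgeR adjusted p = 0.0065) and 1.69 (edgeR adjusted p = 7.7e-04). With sex-linked class in the model neither passed (0.83 and 0.73, edgeR adjusted p = 0.12 and 0.33), and Fos was at 0.49 (edgeR adjusted p = 0.14) without P7 PAB replicate 2 and at 0.58 (edgeR adjusted p = 0.067) with the replicate block and length removal together. The values of Egr1 and Jun were -0.34 (95% interval -0.75 to 0.07) and -0.05 (95% interval -0.36 to 0.25). Of the 17 immediate early genes listed, 5 were called higher and 2 lower, against 9.63% and 8.59% of all genes. DESeq2 called 6 of the 17 and did not call Egr2. Whether tissue handling, which can induce such genes, differed between groups was not tested.

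Amotl2 (ENSMUSG00000032531; chromosome 9, 102716672 to 102733418, plus strand), a target gene that also restrains YAP, was at 75.8, 68.0 and 78.0 CPM in P7 sham and 86.0 and 87.7 CPM in P7 PAB libraries. These groups did not overlap either. The difference of 0.23 passed the adjusted p (edgeR, 0.045) and was under the fold. Leaving out either P7 PAB library kept the value at 0.25 or 0.22, with 1 banded library left and an edgeR adjusted p of 0.11 or 0.14, and leaving out P7 sham replicate 2 gave 0.18 (edgeR adjusted p = 0.15). The edgeR adjusted p of Amotl2 was also over the threshold with the replicate block (0.077), RLE size factors (0.052) and a fit of only the groups compared (0.083), and without P3 sham replicate 2 (0.056) or any 1 of the P3 PAB libraries (0.0511 to 0.075). The value was larger with the length trend removed (0.35, edgeR adjusted p = 0.0067), with sex-linked class in the model (0.49, edgeR adjusted p = 0.018) and with both, where Amotl2 was called (0.61, edgeR adjusted p = 0.0088).

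Of the coactivators, Wwtr1 (ENSMUSG00000027803; chromosome 3, 57455649 to 57575910, minus strand), which encodes TAZ, was at 125, 137 and 137 CPM in P7 sham and at 95.6 and 101 CPM in P7 PAB libraries, a difference of -0.44 (standard error 0.067, edgeR adjusted p = 1.2e-04). Its value stayed between -0.48 and -0.37 over all alternatives, and it kept an adjusted p of at most 0.0487. Yap1 (ENSMUSG00000053110; chromosome 9, 7931999 to 8004596, minus strand) was at 85.8, 88.8 and 84.5 CPM in P7 sham and at 76.8 and 78.2 CPM in P7 PAB libraries. Its groups were also separate, but the difference was only -0.16 (95% interval -0.29 to -0.03, edgeR adjusted p = 0.0497). With the length trend removed, Yap1 was at 0.08 (edgeR adjusted p = 0.35), so its direction depends on that trend. Scaling by the total count also put its adjusted p over the threshold (-0.14, edgeR adjusted p = 0.11).

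Both TEAD members of the group were lower. Tead1 (ENSMUSG00000055320; chromosome 7, 112679318 to 112906807, plus strand), the main TEAD gene in these libraries, was at 210, 248 and 237 CPM in P7 sham and at 164 and 169 CPM in P7 PAB libraries, a difference of -0.48 (standard error 0.083, edgeR adjusted p = 3.3e-04). With the length trend removed it was -0.12 (edgeR adjusted p = 0.20), with sex-linked class in the model -0.33 (edgeR adjusted p = 0.10) and with both 0.03 (edgeR adjusted p = 0.89). Tead4 (ENSMUSG00000030353; chromosome 6, 128224288 to 128300823, minus strand) was at 5.86, 6.02 and 5.49 CPM in P7 sham and at 4.11 and 3.6 CPM in P7 PAB libraries. Its difference of -0.58 fell just short of 1.5-fold (edgeR adjusted p = 0.0038), and Tead4 was not called. Small shifts of the fit brought it over: DESeq2 (-0.59), RLE size factors (-0.59) and removal of the length trend (-0.67) were among the settings that called it. It did not pass the adjusted p with sex-linked class in the model (-0.42, edgeR adjusted p = 0.23). Tead2 and Tead3, TEAD genes outside the group of 10, were not lower. Tead3 was at 24.4, 22.7 and 26.4 CPM in P7 sham and 26.6 and 33.6 CPM in P7 PAB libraries, a difference of 0.29 (edgeR adjusted p = 0.0456). Without P7 PAB replicate 2 Tead3 was at 0.11 (edgeR adjusted p = 0.49), and with sex-linked class in the model at 0.21 (edgeR adjusted p = 0.46). Tead2 was at 34.6, 34.4 and 34.0 CPM against 35.8 and 43.8 CPM, with an interval of -0.04 to 0.47 for the difference.

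Both kinase genes were lower. Lats2 (ENSMUSG00000021959; chromosome 14, 57689662 to 57758388, minus strand) was at 57.9, 60.6 and 61.3 CPM in P7 sham and at 39.9 and 45.3 CPM in P7 PAB libraries, a difference of -0.49 (standard error 0.076, edgeR adjusted p = 1.2e-04). The value was -0.35 with the length trend removed (edgeR adjusted p = 0.0015) and -0.62, a call, with sex-linked class in the model. GENCODE M21 places Gm49361 over 2955 exonic bases of Lats2 on the same strand; Gm49361 is not a row of the table, so the counts of Lats2 may be affected by how such reads were assigned. Lats1 (ENSMUSG00000040021; chromosome 10, 7681214 to 7716460, plus strand) was at 30.7, 36.1 and 34.3 CPM in P7 sham and at 27.4 and 23.7 CPM in P7 PAB libraries, a difference of -0.40 (standard error 0.10, edgeR adjusted p = 0.0033), and at -0.24 with the length trend removed (edgeR adjusted p = 0.0499). Vgll4 (ENSMUSG00000030315; chromosome 6, 114860628 to 114969994, minus strand), which competes with YAP for TEAD, was at 21.9, 21.8 and 23.9 CPM in P7 sham and at 20.7 and 27 CPM in P7 PAB libraries. These groups overlapped, and the interval of its difference ran from -0.15 to 0.31.

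**Figure D3:**
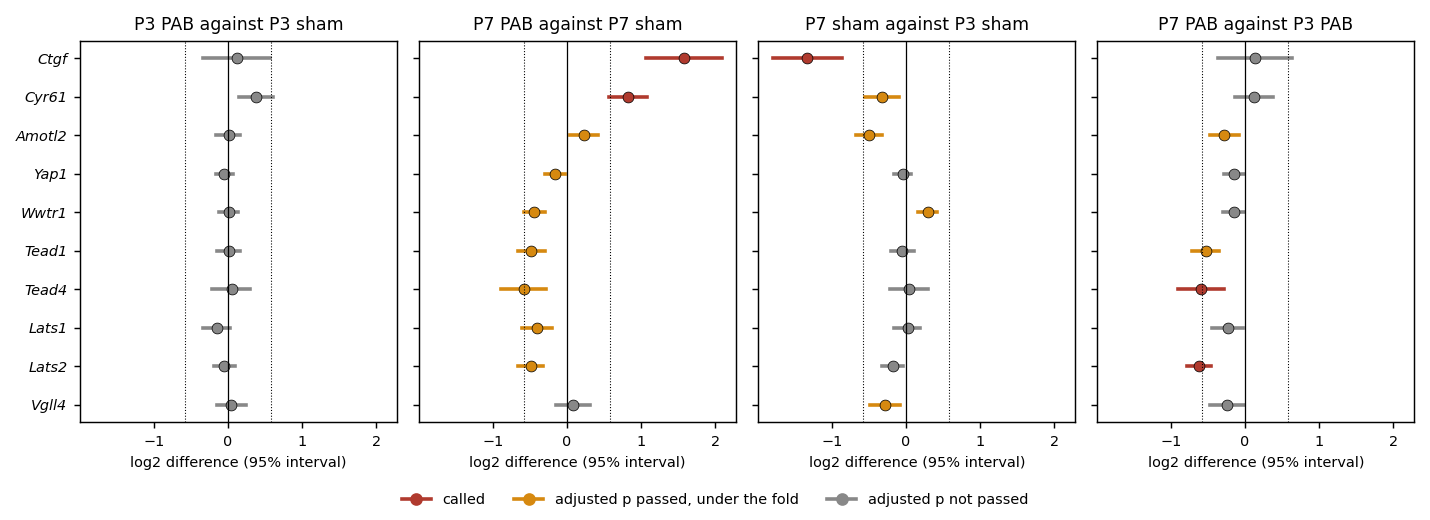
Log2 difference of each gene (points) with its 95% interval (bars) in the comparisons of 2 groups; dotted lines mark a 1.5-fold change, and colours mark whether the gene was called, passed the adjusted p alone, or neither. Ctgf stands at 1.58 and Cyr61 at 0.83 in P7 PAB against P7 sham, while at P3 no interval of a gene other than Cyr61 excludes 0.

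Gene length moves with part of this pattern. The called genes are short, with 2019 exonic bases for Cyr61 and 2861 for Ctgf, and Tead1 (13570), Yap1 (9257), Lats1 (7297) and Lats2 (6971) are longer than at least 78.1% of tested genes. Over all tested genes with a known length, the median P7 difference went from 0.36 in the shortest of 10 length classes to -0.35 in the longest. The median was 0.29 in the length class of Cyr61 and 0.12 in that of Ctgf, against their values of 0.83 and 1.58. It was -0.35 in the class of Tead1, against -0.48, and -0.19 in the class of Yap1, against -0.16. Tead4 and Wwtr1 lie in classes with medians of 0.07 and 0.00, against their values of -0.58 and -0.44. Amotl2 went against the trend, with 6289 exonic bases, a class median of -0.14 and a value of 0.23. At P3 the medians ran from 0.06 to -0.04. What causes this trend was not tested.

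Cell type markers also moved at P7, and their part in the values above was not tested. In bulk RNA, fewer cells of a type and less RNA per cell cannot be told apart. Summed CPM of 8 fibroblast markers was 5999 to 6067 in P7 sham and 4573 to 5449 in P7 PAB libraries, with 2 of 8 called lower (Col3a1 and Pdgfra) and Postn higher at the adjusted p alone (0.21). The sum of 8 endothelial markers was 1520 to 1575 and 1176 to 1292 CPM, with none called by edgeR or DESeq2 and 5 at an unadjusted p under 0.05. At the adjusted p alone Cdh5 (-0.53), Kdr (-0.50) and Tek (-0.42) were lower, while Emcn was higher (0.23), against the falling sum. The 7 smooth muscle and pericyte markers summed to 1523 to 1724 and 1556 to 1679 CPM, but 2 of them, Cnn1 and Tagln, were called higher by 2.56 and 1.19, and at the adjusted p alone Acta2 was higher (0.42) and Rgs5 lower (-0.55). The 8 cardiomyocyte markers summed to 57552 to 66889 and 51595 to 57781 CPM, with Actc1 called higher, Myh6 and Ryr2 called lower and Myl2 higher at the adjusted p alone (0.47). The 6 atrial markers summed to 155 to 207 and 1472 to 1968 CPM; without Nppa, a gene that loaded ventricles express, the sums were 90.1 to 138 and 182 to 207 CPM. Nppa (4.40) and Myl4 (1.31) were called higher and Dkk3 was higher at the adjusted p alone (0.47), whereas Nr2f1 was called lower (-0.71), against the rising sum. Sums of 8 epicardial markers were 107 to 122 and 96.6 to 113 CPM, with Krt19 called higher and Upk3b and Lrrn4 lower. Sums of 7 macrophage markers were 123 to 172 and 121 to 142 CPM, with Mrc1 called lower, and those of 7 erythroid markers 2247 to 3044 and 3412 to 3912 CPM. No erythroid marker was called by edgeR or DESeq2, and 2 had an unadjusted p under 0.05. No marker of these lists was at 0 in a whole group. At P3 edgeR called no gene of the 8 marker lists, and DESeq2 called Nppa.

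At P3, 3 days after banding, none of the 10 genes was called, and none passed the adjusted p alone (edgeR); the shares among all genes were 0.127% and 0.139%. DESeq2 also called none. At an unadjusted p under 0.05 there was 1, Cyr61. Its level was 41.1, 40.4 and 34.4 CPM in P3 sham and 49.5, 56.8 and 44.8 CPM in P3 PAB libraries. All banded libraries were above all sham libraries. The difference was 0.38 (95% interval 0.15 to 0.61, edgeR adjusted p = 0.26). Without a filter on low counts, a fit whose variance prior was infinite, its edgeR adjusted p was 8.1e-04 (0.39), and over all other alternatives it lay between 0.10 and 0.91. Egr1 was likewise higher in all 3 banded libraries at P3, by 0.38 (edgeR adjusted p = 0.55), and of the 17 immediate early genes none was called by edgeR or DESeq2 and 4 had an unadjusted p under 0.05. Ctgf was at 180, 254 and 112 CPM in P3 sham and at 194, 228 and 172 CPM in P3 PAB libraries. Its sham libraries spread over more than the banded ones, and the interval of the difference, -0.33 to 0.57, does not exclude a change of close to 1.5-fold.

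The other 8 genes lay between -0.15 (Lats1) and 0.05 (Tead4) at P3. Yap1 was at 89.5, 89.4 and 87.6 CPM in P3 sham and at 85.3, 87.4 and 85.5 CPM in P3 PAB libraries, groups that did not overlap but differed by only -0.05 (95% interval -0.16 to 0.07). Lats1 was at 32.5, 33.7 and 34.0 CPM in P3 sham and at 31.0, 27.4 and 31.9 CPM in P3 PAB libraries, also without overlap, with a difference of -0.15 (95% interval -0.33 to 0.03). The remaining 6 overlapped between groups. Of these, Tead4 had the widest interval, -0.21 to 0.30, and Wwtr1 the narrowest, -0.12 to 0.13. How often all genes separate by group in this way was not computed.

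The difference between PAB and sham hearts was not the same at P7 as at P3 for several members. At P7 operation coincides with sex-linked class and with the length trend of the P7 PAB libraries, so the interaction holds all of these. With sex-linked class in the model, Tead1 and Tead4 did not pass the adjusted p. The interaction of age and operation passed the adjusted p for 5 of the 10 in edgeR, against 25.9% of all genes, and for 6 in DESeq2, against 24.7% of all genes, the sixth being Cyr61. Ctgf was the 1 with a larger value at P7, by 1.46 (standard error 0.32, edgeR adjusted p = 0.0044), against 13.3% of all genes in that direction. Wwtr1 (-0.44, edgeR adjusted p = 0.0027), Tead1 (-0.49, edgeR adjusted p = 0.0055), Lats2 (-0.44, edgeR adjusted p = 0.0055) and Tead4 (-0.63, edgeR adjusted p = 0.022) had a lower value at P7, against 12.6% of all genes. With the fold threshold, Ctgf and Tead4 were called, against 6.53% of genes higher and 5.68% lower. The call of Tead4 was lost with total-count scaling (-0.57), with sex-linked class in the model (-0.52, edgeR adjusted p = 0.13) and without P3 sham replicate 3 (-0.58), P3 PAB replicate 1 (-0.56) or P7 PAB replicate 2 (-0.54). Scaling by the total count moved the called genes from 1033 higher and 898 lower to 1314 and 679. For Cyr61 the interaction was 0.44 (95% interval 0.10 to 0.79, edgeR adjusted p = 0.0524), close to the threshold on the side that does not pass. It passed with DESeq2 (adjusted p = 0.039) and total-count scaling (edgeR adjusted p = 0.024), and was 0.23 with the length trend removed (edgeR adjusted p = 0.29); over all alternatives the adjusted p lay between 0.0039 and 0.40.

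Age and sex-linked class are partly mixed in sham hearts, because all P7 sham libraries but only replicate 1 of P3 sham were high in Xist. In these libraries Ctgf, Amotl2 and Cyr61 were lower at P7 than at P3, Ctgf most. It was at 180, 254 and 112 CPM at P3 and between 67.1 and 78.0 CPM at P7, with no overlap, a difference of -1.33 (standard error 0.22, 95% interval -1.80 to -0.86, edgeR adjusted p = 3.6e-04). It was the 1 member called, against 5.73% of all genes called lower. The fall was -1.01 without P3 sham replicate 2 and -1.58 without replicate 3. Amotl2 went from 118, 101 and 95.5 CPM to between 68.0 and 78.0 CPM, a difference of -0.50 that passed the adjusted p (edgeR, 2.7e-04) and was called with sex-linked class in the model (-0.67). Cyr61 (-0.32, edgeR adjusted p = 0.033) and Vgll4 (-0.28, edgeR adjusted p = 0.034) also passed it and were under the fold. These 4 lower members stand against 16.8% of all genes. With sex-linked class in the model, the number of all genes lower at the adjusted p alone went from 2650 to 1300. That fit rests on replicate 1 of P3 sham.

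Wwtr1 was the 1 member that was higher at P7 than at P3 in sham hearts, against 16.2% of all genes at the adjusted p alone. It went from 107 to 111 CPM at P3 to 125 to 137 CPM at P7, a difference of 0.29 (standard error 0.059, edgeR adjusted p = 0.0018). It was 0.26 with sex-linked class in the model (edgeR adjusted p = 0.074). Total-count scaling put it at -0.02; that scaling moved the median of all genes by -0.31 in this comparison and changed the calls from 888 higher and 906 lower to 397 and 2881, so directions over age are relative to the other genes. Yap1, Tead1, Tead4 and Lats1 had differences between -0.05 and 0.04 over age, and the interval of Yap1 was -0.16 to 0.07. Total-count scaling put Tead4 at -0.27 and Lats1 at -0.29 (edgeR adjusted p = 0.0077), and under it Amotl2 (-0.81), Cyr61 (-0.63) and Vgll4 (-0.59) were called. Lats2 was at -0.18 (95% interval -0.32 to -0.04, edgeR adjusted p = 0.052).

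Between P7 and P3 in PAB hearts the order of the genes was different. Ctgf, which fell in sham hearts, was at 194, 228 and 172 CPM in P3 PAB and 259 and 174 CPM in P7 PAB libraries, with an interval of -0.37 to 0.63. Cyr61 likewise overlapped between the ages, with an interval of -0.13 to 0.37. The sign of both turned with total-count scaling (-0.12 and -0.13) and without P7 PAB replicate 1 (-0.18 and -0.01), so no direction is given for them. Lats2 went from 64.9, 66.5 and 64.9 CPM to 39.9 and 45.3 CPM (-0.62, edgeR adjusted p = 2.0e-05) and Tead4 from 6.39, 5.63 and 5.48 CPM to 4.11 and 3.6 CPM (-0.60, edgeR adjusted p = 0.0033). These 2 were called lower, against 8.2% of all genes. Tead1 (-0.53, edgeR adjusted p = 1.4e-04) and Amotl2 (-0.28, edgeR adjusted p = 0.021) passed the adjusted p alone, which makes 4 against 21.2%. With the length trend removed Lats2 was at -0.49 and no longer called, Tead1 at -0.23 (edgeR adjusted p = 0.016) and Amotl2 at -0.17 (edgeR adjusted p = 0.15), while Tead4 was at -0.65. The call of Tead4 was lost without P3 PAB replicate 1 (-0.53) or P7 PAB replicate 2 (-0.51), and that of Lats2 without P7 PAB replicate 1 (-0.53). Amotl2 did not pass without P3 PAB replicate 2 (edgeR adjusted p = 0.076), P7 PAB replicate 1 (0.10) or P7 PAB replicate 2 (0.06). Scaling by the total count moved all genes by -0.25 here, with 645 higher and 3068 lower in place of 1501 and 1296. This comparison shares its P7 PAB libraries with that of P7 PAB against P7 sham.

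Among the other Hippo pathway genes, a list of 30 kinases, adaptors and regulators of which 28 were tested, banding at P7 gave 1 call higher and 2 lower, against 9.63% and 8.59% of all genes. At the adjusted p alone 4 were higher and 14 lower, against 22.8% and 22.1%. Their median difference was -0.27, close to the -0.28 of the 10 members. Removing the length trend gave a median of -0.01, with 5 higher and 6 lower at the adjusted p alone, against 19.8% and 17.8% of all genes. Wtip, an Ajuba-family LIM protein that binds LATS kinases, was at 12, 11.4 and 12.7 CPM in P7 sham and 17.3 and 20.4 CPM in P7 PAB libraries (0.64, edgeR adjusted p = 2.7e-04). Taok3 was at 15, 12.6 and 13.2 CPM against 8.21 and 8.97 CPM (-0.66, edgeR adjusted p = 2.4e-04), and Taok2 at 114, 102 and 115 CPM against 66.8 and 79.2 CPM (-0.60, edgeR adjusted p = 7.3e-05); both encode kinases that act upstream in the cascade. None of these 3 calls held with the length trend removed, where the values were 0.43, -0.37 and -0.37. Wtip also lost its call with sex-linked class in the model (0.45, edgeR adjusted p = 0.089) and without P7 PAB replicate 2 (0.52), and Taok2 with scaling by total counts (-0.58) and without P7 sham replicate 1 (-0.58), P7 sham replicate 3 (-0.57) or P7 PAB replicate 1 (-0.48). At P3 none of the 28 genes was called by edgeR or DESeq2, and 2 had an unadjusted p under 0.05.

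The list of 18 other YAP and TAZ target genes, of which 17 were tested, gave 2 calls higher and 1 lower at P7, and 2 higher and 7 lower at the adjusted p alone, against the same shares of all genes, with a median of -0.15. These counts and this median come from the fit that keeps the length trend. Ankrd1, a stretch-responsive ankyrin repeat gene of muscle, was at 759, 736 and 635 CPM in P7 sham and 1948 and 1328 CPM in P7 PAB libraries (1.21, standard error 0.20, edgeR adjusted p = 1.8e-04). Igfbp3, an IGF-binding protein, was at 20.9, 20.2 and 19.5 CPM against 35.2 and 36.2 CPM (0.82, edgeR adjusted p = 8.8e-06). Crim1, a membrane protein that binds BMPs, was at 33.5, 35.7 and 38.4 CPM against 22.1 and 24.4 CPM (-0.63, edgeR adjusted p = 7.4e-05), and lost its call with the length trend removed (-0.53), with sex-linked class in the model (-0.49) and without P7 sham replicate 3 (-0.57) or P7 PAB replicate 1 (-0.55). The calls of Ankrd1 and Igfbp3 held under every alternative run, although in the fits with 1 P7 PAB library left the spread comes from the other groups. At P3 none of the 17 was called by edgeR or DESeq2, and 4 had an unadjusted p under 0.05, among them Ankrd1, for which all 3 banded libraries (1157, 1167 and 990 CPM) were above all sham libraries (762, 790 and 439 CPM; 0.73, edgeR adjusted p = 0.17). Ankrd1 was called at P3 with the replicate block (0.77, edgeR adjusted p = 0.019), also with the length trend removed (0.75, edgeR adjusted p = 0.019), and in the fits without a filter (0.74, edgeR adjusted p = 3.6e-19 with an infinite variance prior and 0.02 with bias-adjusted residuals). Without P3 sham replicate 3 Ankrd1 was at 0.51 (edgeR adjusted p = 0.44). Ptpn14 is in both lists.

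In PAB hearts 15 of the 28 other Hippo genes were lower at P7 than at P3 at the adjusted p alone and 0 higher, against 21.2% and 22.3% of all genes, with a median of -0.23; DESeq2 gave 14 lower and 0 higher. Once the length trend was removed 5 were lower and 2 higher, with a median of -0.09, against 18.2% and 19.5% of all genes. In sham hearts 6 of the 28 were lower and 3 higher, against 16.8% and 16.2%. Of the 17 other target genes 5 were lower and 2 higher in PAB hearts. With the fold threshold, 2 Hippo genes (Wwc1 and Amotl1) and 1 target gene (Dock5) were called lower in PAB hearts, against 8.2% of all genes, and Wwc1 in sham hearts, against 5.73%. In PAB hearts Amotl1, a relative of Amotl2, was lower at P7 (-0.60, edgeR adjusted p = 3.6e-05), as was Dock5, a guanine nucleotide exchange factor (-0.64, edgeR adjusted p = 3.4e-04); neither call held with the length trend removed (-0.38 and -0.37). The call of Amotl1, close to the fold threshold, was also lost with the replicate block (-0.58) and without P3 PAB replicate 1 (-0.58), P3 PAB replicate 2 (-0.58) or P7 PAB replicate 1 (-0.55), and that of Dock5 without P7 PAB replicate 2 (-0.51). Wwc1 was at a mean of under 5 CPM. In sham hearts none of the 17 other target genes was called by edgeR or DESeq2 over age, and 6 had an unadjusted p under 0.05. At the adjusted p alone 3 of the 17 were higher and 1 lower, with a median of 0.10 over the 17, against 16.2% and 16.8% of all genes.

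**Figure D4:**
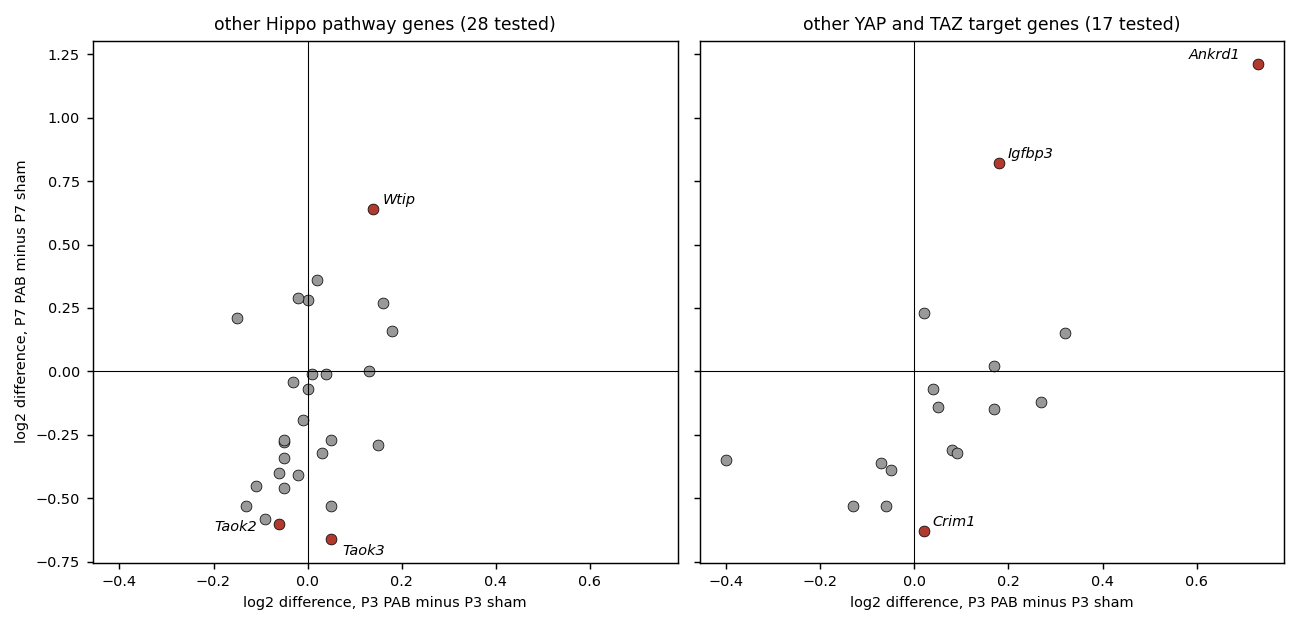
Log2 difference between PAB and sham at P3 (x axis) and at P7 (y axis) for 28 other Hippo pathway genes (left) and 17 other YAP and TAZ target genes (right); each point is a gene, and red points were called at P7. Wtip, Ankrd1 and Igfbp3 lie above 0 at P7 with values of 0.64, 1.21 and 0.82, and 14 Hippo genes and 7 target genes passed the adjusted p below 0. All values come from the fit that keeps the length trend.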

How the data were processed

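RNA-seq counts of 11 libraries were used. Per the labels and the study's methods, the authors aligned reads to GRCm38 (mm10) with STAR 2.5.2b and Gencode, and deposited whole counts per gene without normalization; the counting tool, strand setting and Gencode release are not given in the sources used here. Every column was mapped to a sample by its label. The analysis used edgeR 4.0.16 under R 4.3.3 (filterByExpr, TMM, quasi-likelihood fit of 4 groups over all libraries, because P7 PAB has 2); p-values were adjusted over 15808 genes. Intervals are 95% t intervals of the fit. DESeq2 1.42.0 was an alternative. Positions and exonic lengths came from GENCODE M21, by name, identifier or older symbol (48572 of 50600 genes), and promoters from RefSeq. Tested on simulated data in which 200 of 15808 genes had a 2-fold change, the fit found 71% of them for the P3 comparison (4 false calls) and 76.5% for the P7 comparison (8 false calls). A count of 0 allows up to 3 counts, 0.114 to 0.148 CPM, counting error only.

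The members and lists were chosen with earlier results of these data known. Beside the members, genes were named as the 3 called rises and falls of largest size per list and comparison with a mean of at least 5 CPM, the CCN family, Fos, Egr1, Jun and Atf3 beside Cyr61, markers that moved, and the 3 genes most like Yap1, Cyr61 and Ctgf (mean of at least 10 CPM); Wwc1, Tead2 and Tead3 were named after their values were seen. Alternatives were other scalings, filters, fits and thresholds, removal of the length trend (lowess, span 0.3), sex-linked class (Xist of at least 100 CPM or not) in the model, a replicate block, and leaving out each library. An unfiltered fit with bias-adjusted residuals and sex-linked class together with length removal were added after seeing the data, as were the list counts under each alternative. Protein sequences were not used here.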

Additional observations from a re-analysis of the deposited data

Results flagged for a closer look

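The difference between PAB and sham was not the same at P7 as at P3 for 5 of the 10 genes, against 25.9% of all genes. The test was that of the interaction of age and operation (edgeR's quasi-likelihood test, adjusted over all genes tested). This interaction also holds sex-linked class, which coincides with operation at P7. Ctgf differed by 1.46 on the log2 scale, with an adjusted p of 0.0044. The value was -0.44 for Wwtr1 (adjusted p = 0.0027), -0.49 for Tead1 (adjusted p = 0.0055), -0.63 for Tead4 (adjusted p = 0.022) and -0.44 for Lats2 (adjusted p = 0.0055), by the same edgeR test. For Ctgf, both P7 PAB libraries were above all 3 P7 sham libraries, and for the other 4 genes both were below them. At P3 all 5 overlapped between PAB and sham. The 5 genes were chosen by the test on these same libraries, so these positions describe them and are no separate support. With the length trend removed, the interaction of Tead1 was -0.17 (edgeR adjusted p = 0.22), that of Lats2 -0.32 (0.027), that of Wwtr1 -0.44 (0.0038), that of Tead4 -0.71 (0.015) and that of Ctgf 1.32 (0.01). With sex-linked class in the model, Tead1 (0.058) and Tead4 (0.13) no longer passed the adjusted p. The causes were not tested.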

How the results depend on the processing

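The calls of Ctgf at P7, over age in sham hearts and in the interaction held under every alternative run; with 1 P7 PAB library left the spread comes from the other groups. The number of members called moved from 2 to 9 at P7, from 1 to 5 over age in sham hearts, from 2 to 4 over age in PAB hearts and from 2 to 5 in the interaction when the fold threshold was dropped, as that setting is built to do. Over age in sham hearts it was 4 under total-count scaling and 2 with sex-linked class in the model, whether or not the length trend was removed. Over age in PAB hearts it was 3 under total-count scaling, with Tead1 added, 1 with the length trend removed, alone, with the replicate block or with sex-linked class, and 1 to 2 when 1 library was left out. In the interaction it was 1 under total-count scaling and 1 with sex-linked class in the model, whether or not the length trend was removed, and 1 to 2 when 1 library was left out. The fits that gave 1 were those without P3 PAB replicate 1 or P7 PAB replicate 2, which lost Tead4, and without P7 PAB replicate 1, which lost Lats2, over age, and those without P3 sham replicate 3, P3 PAB replicate 1 or P7 PAB replicate 2, which lost Tead4, in the interaction.

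With the length trend removed alone, with the replicate block or with sex-linked class, Yap1 was 0.08, 0.05 and 0.10 at P7, 0.05, 0.03 and 0.05 over age in PAB hearts and 0.09, 0.07 and 0.10 in the interaction. Over age in PAB hearts Cyr61 was -0.11, -0.14 and -0.11 under these settings, and Ctgf was -0.10 under the second. Tead1 at P7 was 0.03 under the third. Total-count scaling gave -0.04 for Wwtr1, -0.03 for Tead1 and -0.04 for Amotl2 at P3, -0.02 for Wwtr1, -0.27 for Tead4 and -0.29 for Lats1 over age in sham hearts (Lats1 with an edgeR adjusted p of 0.0077), and -0.13 for Cyr61 and -0.12 for Ctgf over age in PAB hearts. With sex-linked class in the model Tead4 over age in sham hearts was -0.07, or -0.05 with the length trend removed, and Nov at P7 was 0.15.

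When 1 library was left out, the P3 range was -0.13 (without P3 sham replicate 3) to 0.44 for Ctgf, -0.02 to 0.02 for Wwtr1, -0.03 to 0.06 for Tead1, -0.02 to 0.11 for Tead4, -0.06 to 0.10 for Amotl2 and -0.02 to 0.09 for Vgll4. At P7 it was -0.12 (without P7 PAB replicate 2) to 0.26 for Vgll4 and -0.13 to 0.04 for Jun. Over age it was -0.10 to 0.02 for Tead1, -0.01 to 0.09 for Tead4 and -0.04 to 0.08 for Lats1 in sham hearts, and -0.01 to 0.24 for Cyr61 and -0.18 to 0.39 for Ctgf in PAB hearts. In the interaction it was -0.17 to 0.21 for Vgll4. The causes were not tested.

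No label says that replicate numbers pair the libraries, and same-numbered libraries correlated at -0.0998 to 0.144 after subtraction of group means. At P3 each sham library correlated best with the banded library of its number, a hint from the data, not the design. With the replicate block the P7 call count was 3 (Tead4 at -0.63, Cyr61 and Ctgf), and it changed no other number of members called.

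Genes called among all tested went from 20 at P3 to 141 without a filter, a fit with an infinite variance prior, 49 with bias-adjusted residuals, 39 with DESeq2, 37 with the block and length removal and 4 to 26 when 1 library was left out (4 without P3 sham replicate 3 or P3 PAB replicate 2, 8 without P3 sham replicate 2 and 10 without P3 PAB replicate 1). At P7 they went from 2880 to 7091 without the fold threshold, 1900 with block and length removal and 1370 with sex-linked class and length removal; for the interaction from 1931 to 4096, 1224 and 920. Over age they went from 1794 to 5216 without the fold threshold and 3278 by the total count in sham hearts, and from 2797 to 6875 without the fold threshold in PAB hearts. A fit of only the groups compared was not run for the interaction. P7 PAB has 2 libraries, which limits the precision there.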

Other observations

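Ctgf and Cyr61 belong to the CCN family of secreted matricellular proteins, and the other 4 members did not share 1 pattern. Wisp2 (Ccn5), which lacks the C-terminal domain of its relatives, was at 0.936, 0.729 and 0.461 CPM in P7 sham and at 4.45 and 3.65 CPM in P7 PAB libraries, a difference of 2.53 (standard error 0.28, edgeR adjusted p = 7.8e-06) at a low level. At P3 all 3 PAB libraries (1.29, 1.13 and 1.06 CPM) were above all sham libraries (0.859, 0.571 and 0.552 CPM), but the difference of 0.80 did not pass (edgeR adjusted p = 0.43). Wisp1 (Ccn4) was lower at P7 than at P3 in sham hearts (-0.57, edgeR adjusted p = 1.4e-04), just under the fold and called with total-count scaling (-0.88). Wisp1 was higher in PAB than in sham hearts at P7 by 0.24 (edgeR adjusted p = 0.0472), and by 0.15 with sex-linked class in the model (edgeR adjusted p = 0.54) and 0.16 without P7 PAB replicate 2 (edgeR adjusted p = 0.28). Nov (Ccn3) was higher at P7 than at P3 in sham hearts by 0.45 (edgeR adjusted p = 0.018), opposite in sign to Ctgf, by 0.14 with total-count scaling (edgeR adjusted p = 0.38) and by 0.19 with sex-linked class in the model (edgeR adjusted p = 0.48). Nov was at -0.27 for PAB against sham at P7 (95% interval -0.59 to 0.06). Wisp3 (Ccn6), at 0 to 0.266 CPM, did not pass the filter.

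The genes most like a member over the 11 libraries, by Pearson correlation of log2 CPM among 9235 genes, are given as a description. For Yap1 they were Slc16a10 (0.977), Arhgap31 (0.963) and Helb (0.959), for Cyr61 Mgat1 (0.969), Prmt2 (0.961) and Arl2 (0.961), and for Ctgf Bub3 (0.961), Tra2b (0.956) and Fam58b (0.952). The libraries share their groups and the length trend of the P7 PAB libraries.

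The ratio of Wwtr1 to Yap1 CPM, noticed after the data were seen and not tested, was 1.21 to 1.24 in P3 sham, 1.24 to 1.32 in P3 PAB, 1.46 to 1.63 in P7 sham and 1.25 to 1.29 in P7 PAB libraries. The P7 sham libraries lie above all others, and the P7 PAB libraries lie within the range of the P3 PAB libraries.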
